A study of Rattus norvegicus with 7 samples.

Results

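Rat ventricular cardiomyocytes that had received the miRNA miR-373-3p were set against the same kind of cells that had received cel-miR-67. RPKM, the unit throughout, counts the reads of a gene relative to its length and to the size of its library. Genes entered when they averaged 1 RPKM or more over the 7 libraries of the series, which 12330 of 17141 did. The comparison rests on 2 of the 7 libraries, 1 a side, so it has no replicate check: no p-value is given, the spread between cultures is unknown, and "higher" and "lower" describe these libraries. The cells came from wild-type Wistar rats at postnatal day 0, from ventricles freed of the atria. They were kept on plastic for a time and the cells that stayed in suspension, mainly cardiomyocytes, were plated. Every group received its synthetic miRNA at 25 nM with Lipofectamine RNAiMAX, a lipid reagent, and RNA was taken 72 h later. The miRNAs were miR-373-3p, miR-302d-3p, which has the same seed, the 4 miRNAs of other seeds miR-199a-3p, miR-590-3p, miR-33b* and miR-1825, and cel-miR-67, a worm miRNA. No label names a control; cel-miR-67 serves as the reference because the authors' deposited ratios divide by it.

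A miRNA pairs through its seed, bases 2 to 8, with sites in messenger RNAs, and such pairing lowers the level or the translation of the messenger. miR-373-3p is a human miRNA of embryonic stem cells, of a family that also holds the miR-302 cluster and is known for faster passage through the cell cycle and for acting on TGF-beta receptor and LATS2 messengers. Cells answer damage with separate programmes, among them chaperones that hold unfolded proteins, immediate early transcription factors, interferon induced genes that meet foreign RNA, and, in heart muscle, genes of wall stress such as natriuretic peptides and Z-disc proteins.

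The mature sequence of miR-373-3p itself is not printed here. Rat miRNAs with the bases of its seed are shown because they let the family seed be read, with bases 2 to 8 in capitals, from RefSeq on GRCr8.
rno-miR-291a-3p: aAAGUGCUuccacuuugugugcc
rno-miR-295-3p: aAGUGCUAcuacuuuugggugu
rno-miR-17-5p: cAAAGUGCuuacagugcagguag
rno-miR-199a-3p: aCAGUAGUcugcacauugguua
rno-miR-291a-3p carries the family seed at bases 2 to 8, and is 1 of 2 that do among the 693 rat mature miRNAs in the RefSeq list. In rno-miR-295-3p and rno-miR-17-5p the same 7 bases are offset by 1 base, and 8 rat miRNAs hold them when they may start at base 1, 2 or 3. rno-miR-199a-3p, the rat form of one of the 4 miRNAs of other seeds, is printed for contrast.

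The 7 libraries held 22616067 to 31963293 reads in listed genes, with 29377003 for miR-373-3p and 24836246 for cel-miR-67. The size by which the RPKM were divided was another number, 30663446 reads with miR-373-3p and 22674410 with cel-miR-67 as recovered from the values, and how the authors set it is not given in the sources used. Mitochondrial transcripts took 33.2% of these reads with miR-373-3p and 41.0% with cel-miR-67. For a messenger of 2 kb, 3 reads amount to 0.0489 RPKM with miR-373-3p and 0.0662 RPKM with cel-miR-67. Intervals below are exact 95% intervals of the ratio of read rates, without a pseudocount, and cover counting error only. Changes are log2 of (RPKM + 1) with miR-373-3p over (RPKM + 1) with cel-miR-67, a scale that understates the change of low genes.

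Across the 12330 genes, 142 (1.15%) reached a 2-fold higher level with miR-373-3p and 230 (1.87%) a 2-fold lower one. The median change was 0.01, with the 5th and 95th percentiles at -0.67 and 0.58. Against the mean of the 4 libraries of other seeds in place of cel-miR-67 the counts were 60 higher and 152 lower.

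**Figure D1:**
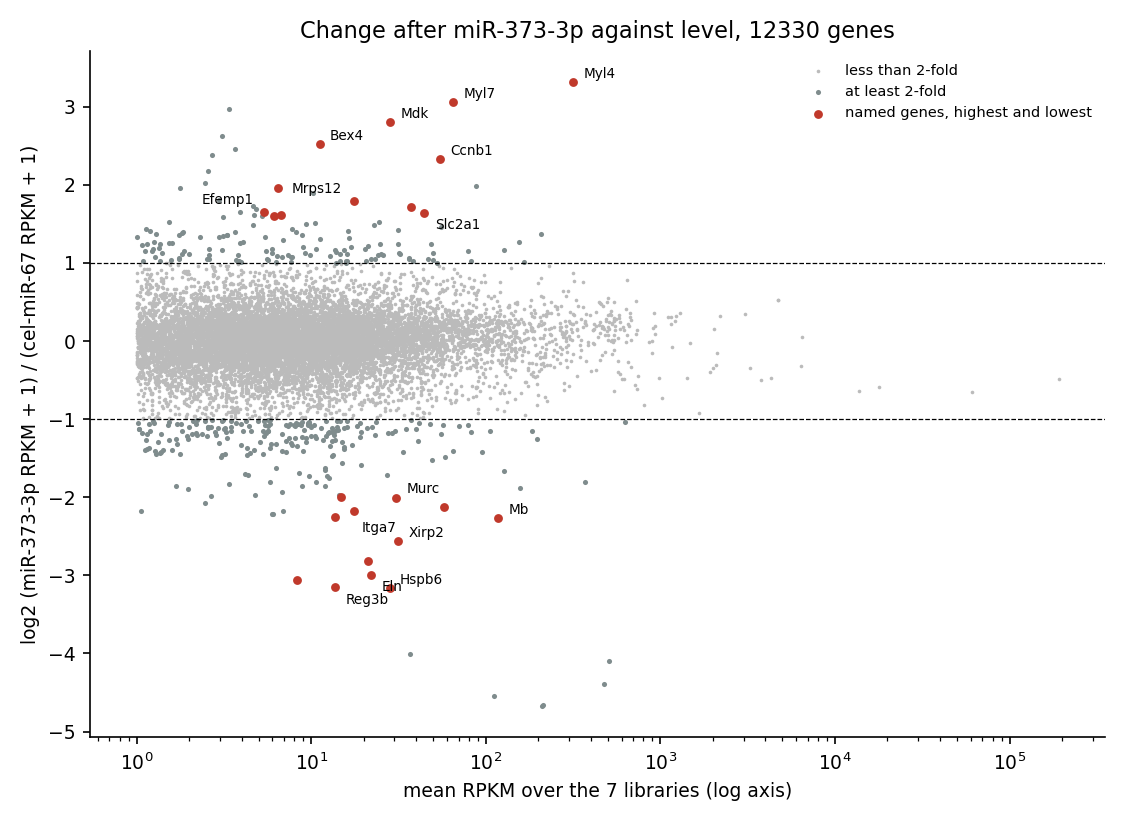
Change of each of the 12330 genes with miR-373-3p over cel-miR-67 (log2 of RPKM + 1) against its mean RPKM over the 7 libraries (log axis). Dashed lines mark 2-fold; red points are the 12 highest and 12 lowest genes of the naming rule, with labels for those described in the text, from Myl4 at 3.32 to Hspb6 at -3.16.

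The 2 highest of the named genes were myosin light chains of the atrium. Myl4 stood at 838 RPKM with miR-373-3p and 876 with miR-302d-3p, against 42.6 with miR-199a-3p, 141 with miR-590-3p, 182 with miR-33b* and 45.6 with miR-1825, and 83.2 RPKM with cel-miR-67. Myl7 stood at 165 RPKM with miR-373-3p and 194 with miR-302d-3p, against 21.1 with miR-199a-3p, 20.1 with miR-590-3p, 21.9 with miR-33b* and 16.4 with miR-1825, and 18.8 RPKM with cel-miR-67. Both were several times higher in the pair of libraries with the shared seed than in any other library, with changes of 3.32 and 3.06 against cel-miR-67. The list of atrial genes that holds them was mixed: of 14 measured, 4 were at least 1.5-fold higher and 3 lower, with a median of 0.00. Among the lower ones was Sln, the calcium pump inhibitor sarcolipin of the atrium, at 8.098 RPKM with miR-373-3p and 19.1 RPKM with cel-miR-67 (-1.14), although it was slightly above the mean of the 4 miRNAs of other seeds (0.16). Over all genes 4.83% were at least 1.5-fold higher and 6.56% at least 1.5-fold lower.

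Next in height came the growth factor midkine. Mdk stood at 46.1 RPKM with miR-373-3p and 58.6 with miR-302d-3p, against 11.6 with miR-199a-3p, 5.91 with miR-590-3p, 66.5 with miR-33b* and 4.04 with miR-1825, and 5.75 RPKM with cel-miR-67. It was higher still with miR-33b*; the change against cel-miR-67 was 2.80. Bex4, a brain-expressed X-linked family member, stood at 20.3 RPKM with miR-373-3p and 29.1 with miR-302d-3p, against 12.4 with miR-199a-3p, 6.77 with miR-590-3p, 4.37 with miR-33b* and 2.72 with miR-1825, and 2.72 RPKM with cel-miR-67. With miR-373-3p it was above all 4 miRNAs of other seeds. Efemp1, a fibulin of the matrix, was at 11.1 RPKM with miR-373-3p and 2.84 RPKM with cel-miR-67 (1.65), with 3.18 to 5.36 RPKM in the 4 libraries of other seeds. Ccnb1 and Mrps12, cyclin B1 and a mitochondrial ribosomal protein, were higher than with cel-miR-67 (2.33 and 1.79) but lower than the mean of the 4 libraries of other seeds (-0.24 and -0.11). Of the 12 named higher genes 6 were also above all 4 miRNAs of other seeds by at least 1.5-fold. The same held for 33 of the 142 genes at least 2-fold higher, and for 0.608% of all 12330 genes. The 12 were chosen for high values with miR-373-3p, so their count follows in part from that choice.

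The lowest genes held 1 chaperone, a set of muscle membrane and Z-disc genes, and matrix genes. Eln, the elastin of elastic fibres, stood at 5.704 RPKM with miR-373-3p and 3.58 with miR-302d-3p, against 48.9 with miR-199a-3p, 19.1 with miR-590-3p, 9.47 with miR-33b* and 16.1 with miR-1825, and 52.3 RPKM with cel-miR-67. Reg3b, a secreted C-type lectin, stood at 2.59 RPKM with miR-373-3p and 1.48 with miR-302d-3p, against 7.86 with miR-199a-3p, 6.55 with miR-590-3p, 36.6 with miR-33b* and 9.75 with miR-1825, and 30.9 RPKM with cel-miR-67. Both were below all 4 miRNAs of other seeds, and Reg3b was highest with miR-33b*. Mb, the oxygen binding myoglobin, stood at 51.6 RPKM with miR-373-3p and 41.2 with miR-302d-3p, against 235 with miR-199a-3p, 55.6 with miR-590-3p, 146 with miR-33b* and 39.3 with miR-1825, and 252 RPKM with cel-miR-67. Its level with miR-373-3p lay between those with miR-1825 and miR-590-3p, so other seeds gave as low a level. In bulk RNA such as this, fewer cells of a type and less RNA per cell cannot be told apart.

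Itga7 and Murc, genes of the muscle membrane and of its caveolae, were low against every other seed. Itga7, the laminin binding integrin of muscle, stood at 5.21 RPKM with miR-373-3p and 2.995 with miR-302d-3p, against 29.7 with miR-199a-3p, 21.4 with miR-590-3p, 15.8 with miR-33b* and 20.3 with miR-1825, and 27.2 RPKM with cel-miR-67. Murc, a cavin of muscle caveolae, stood at 10.6 RPKM with miR-373-3p and 11.3 with miR-302d-3p, against 38.9 with miR-199a-3p, 46.1 with miR-590-3p, 18.7 with miR-33b* and 43.8 with miR-1825, and 45.5 RPKM with cel-miR-67. In neither did the level with miR-373-3p or miR-302d-3p reach that of any other library. Of the 12 named lower genes 8 were below all 4 miRNAs of other seeds by at least 1.5-fold. The same held for 82 of the 230 genes at least 2-fold lower, and for 1.55% of all 12330 genes. The 12 were chosen for low values with miR-373-3p, so their count follows in part from that choice.

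The stress genes were taken from 12 lists of 305 symbols, of which 289 were matched and 258 reached a mean of 1 RPKM. With miR-373-3p 11 of the 258 were at least 1.5-fold higher (4.26%) and 48 at least 1.5-fold lower (18.6%), against 4.83% and 6.56% of all 12330 genes. The higher share was thus near that of all genes. Lists and members were chosen with earlier results of these data known, so the excess of lower members is a description and not a test. With the mean of the 4 miRNAs of other seeds as the reference the lower count was 28. At 2-fold, 6 were higher (2.33%) and 13 lower (5.04%), against 1.15% and 1.87% of all genes. The median over the 258 was -0.10. By count, the lists with the most lower members were the interferon list with 14, the immediate early list with 6 and the cardiac stress list with 5. By share, the GADD45 and growth arrest list came after the interferon list, with 4 of 11 (36.4%). The immediate early list had 26.1% and the cardiac stress list 23.8%.

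**Figure D2:**
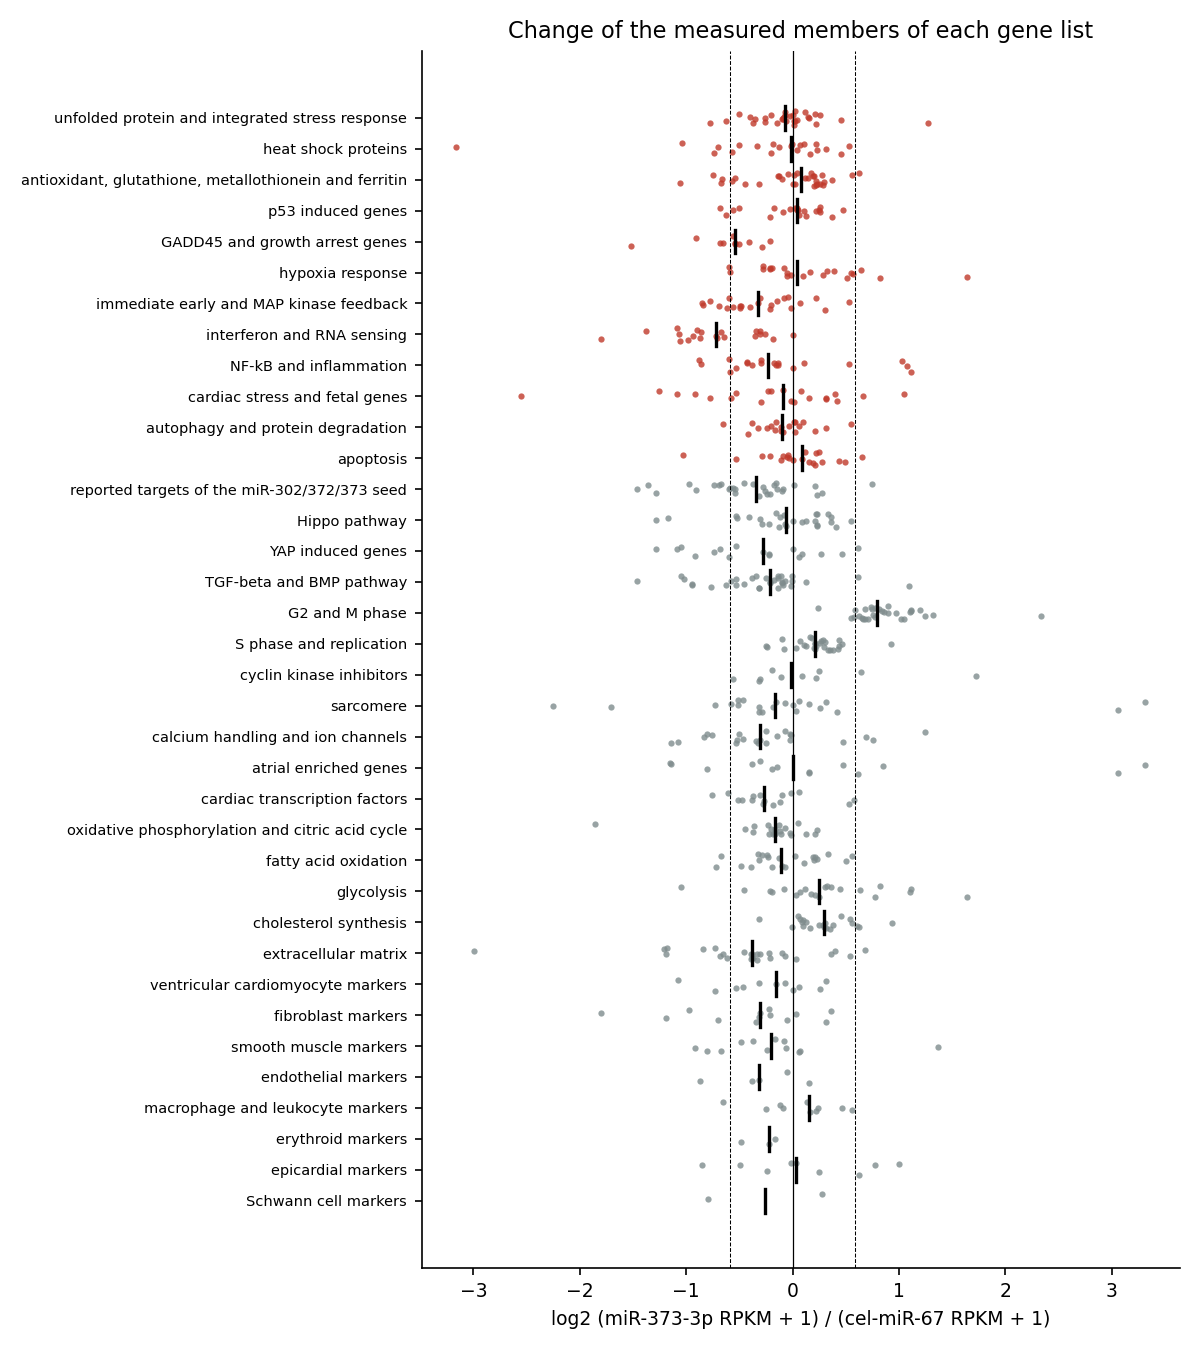
Change of each measured list member with miR-373-3p over cel-miR-67 (log2 of RPKM + 1), with the 12 stress lists in red, other lists in grey, medians as black bars and dashed lines at 1.5-fold. The interferon list has its median at -0.72 and the GADD45 and growth arrest list at -0.54, while the other stress lists lie between -0.32 and 0.08.

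A stress gene was counted as unlike the 4 miRNAs of other seeds when its log2 (RPKM + 1) with miR-373-3p lay at least 1.5-fold outside their range. By this rule 11 of the 258 were below (4.26%) and 2 above (0.775%), against 1.55% and 0.608% of all 12330 genes. The 4 libraries are different treatments and not replicates, so their range is a description. The excess of members below it is one too, since the lists were chosen with earlier results of these data known. All 11 below were also lower than with cel-miR-67, 9 of them by at least 1.5-fold. Both comparisons use the same miR-373-3p values, so the second is not separate support for the first. Junb and Irf7 were only just past the limit, at 1.5003-fold and 1.5006-fold outside the range; Ccl20 and Rcan1 were just short of it, at 1.47-fold each. Without miR-33b* in the range 7 were above, without miR-199a-3p 17 were below, and with a pseudocount of 5 RPKM 1 was above and 6 were below.

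**Figure D3:**
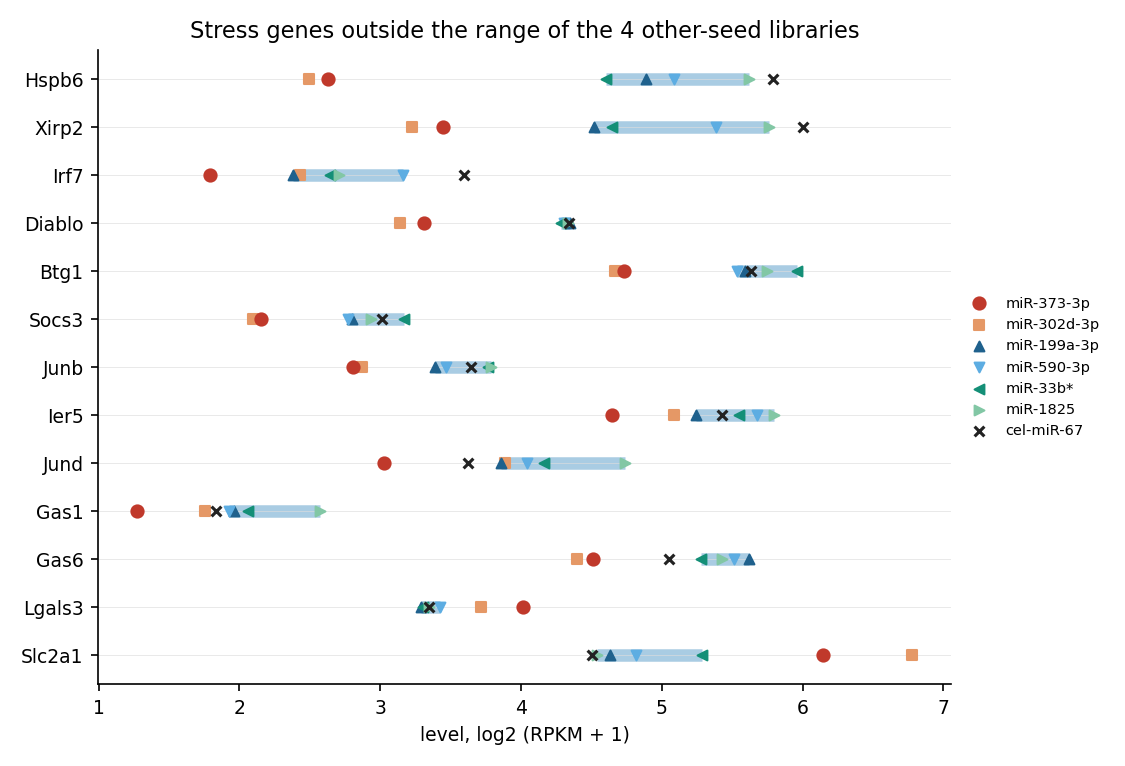
Level of the 13 stress genes outside the range in each of the 7 libraries, as log2 (RPKM + 1). Blue bars span the 4 miRNAs of other seeds; the red circle of miR-373-3p is left of the bar for 11 genes and right of it for Lgals3 and Slc2a1.

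Among the chaperones 1 small heat shock protein stood far below the rest. Hspb6, which binds actin and is a kinase substrate in muscle, stood at 5.18 RPKM with miR-373-3p and 4.64 with miR-302d-3p, against 28.6 with miR-199a-3p, 32.9 with miR-590-3p, 23.3 with miR-33b* and 48.3 with miR-1825, and 54.3 RPKM with cel-miR-67. This was 208 reads with miR-373-3p and 1612 with cel-miR-67, a change of -3.16, and the log2 ratio of read rates had an interval of -3.605 to -3.18. It was the lowest of the 12 named lower genes and, with Xirp2, 1 of 2 stress genes still outside at a 2-fold margin. The other lower members of the 21 measured heat shock genes were Cryab, Hspb1 and Bag3. Cryab, the alpha B crystallin of the Z-disc, stood at 429 RPKM with miR-373-3p and 879.6 RPKM with cel-miR-67, with 588 to 778 RPKM in the 4 libraries of other seeds. Bag3, the co-chaperone of small heat shock proteins, was at 3.86 RPKM with miR-373-3p and 6.91 RPKM with cel-miR-67. No heat shock gene was at least 1.5-fold higher and 4 of 21 (19%) were lower, against 4.83% and 6.56% of all genes. The other 17 of 21 passed neither limit, and the median was -0.01.

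The unfolded protein and integrated stress response was near its level with cel-miR-67. Of 32 measured genes 1 was at least 1.5-fold higher (3.12%) and 2 lower (6.25%), against 4.83% and 6.56% of all genes. The median was -0.07. Canx, the lectin chaperone calnexin, stood at 195 RPKM with miR-373-3p and 191 with miR-302d-3p, against 165 with miR-199a-3p, 153 with miR-590-3p, 158 with miR-33b* and 147 with miR-1825, and 80.2 RPKM with cel-miR-67. Its level with cel-miR-67 was below that of every other library, and the change with miR-373-3p was 1.27. Herpud1, a degradation factor of the endoplasmic reticulum, was at 25.1 RPKM with miR-373-3p and 43.6 RPKM with cel-miR-67 (-0.77) but above the mean of the 4 miRNAs of other seeds (0.15). Atf3, a stress induced transcription factor, was at 2.96 RPKM with miR-373-3p and 5.11 RPKM with cel-miR-67 (-0.63), with 3.23 to 5.88 RPKM in the 4 libraries of other seeds.

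The cardiac stress genes held the second low gene. Xirp2, an actin binding repeat protein of the intercalated disc, stood at 9.89 RPKM with miR-373-3p and 8.34 with miR-302d-3p, against 21.9 with miR-199a-3p, 40.7 with miR-590-3p, 24.1 with miR-33b* and 53.2 with miR-1825, and 63.04 RPKM with cel-miR-67. The change was -2.56, and the log2 ratio of read rates had an interval of -2.72 to -2.62. Of 21 measured genes of this list 5 were at least 1.5-fold lower (23.8%) and 2 higher (9.52%), against 6.56% and 4.83% of all genes. Fhl1, a LIM protein of the sarcomere in the hypertrophic response, was at 108 RPKM with miR-373-3p and 259 RPKM with cel-miR-67, and Ankrd1, a titin binding protein, at 1458 RPKM with miR-373-3p and 2753 RPKM with cel-miR-67. For both, the level with miR-373-3p was within or just below the range of the other seeds, 123 to 322 and 1052 to 2043 RPKM. Rcan1, the calcineurin inhibitor, was at 91.5 RPKM with miR-373-3p and 158 RPKM with cel-miR-67, with 135 to 165 RPKM in the 4 libraries of other seeds.

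Lgals3 and Spp1 were the higher genes of the list. Lgals3, galectin 3, stood at 15.1 RPKM with miR-373-3p and 12.2 with miR-302d-3p, against 8.77 with miR-199a-3p, 9.71 with miR-590-3p, 8.896 with miR-33b* and 9.16 with miR-1825, and 9.19 RPKM with cel-miR-67. Its levels with the 4 miRNAs of other seeds and with cel-miR-67 lay close together, below both libraries with the shared seed. It left the set of genes outside the range when the values were scaled to the reads outside mitochondrial transcripts or to the median gene. Spp1, osteopontin, was at 49.95 RPKM with miR-373-3p and 23.6 RPKM with cel-miR-67 (1.05), with 24.9 to 44.00 RPKM in the 4 libraries of other seeds.

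Of 23 measured genes of the immediate early and MAP kinase feedback list 6 (26.1%) were at least 1.5-fold lower with miR-373-3p. None was higher and 17 passed neither limit. The shares over all genes were 6.56% lower and 4.83% higher. The list's median against the shared cel-miR-67 library was -0.32 with miR-373-3p, -0.25 with miR-302d-3p and between -0.22 and 0.07 with the 4 miRNAs of other seeds. Junb, a subunit of AP-1, stood at 5.98 RPKM with miR-373-3p and 6.302 with miR-302d-3p, against 9.47 with miR-199a-3p, 10.1 with miR-590-3p, 12.6 with miR-33b* and 12.8 with miR-1825, and 11.5 RPKM with cel-miR-67. Jund, another AP-1 subunit, stood at 7.15 RPKM with miR-373-3p and 13.8 with miR-302d-3p, against 13.5 with miR-199a-3p, 15.5 with miR-590-3p, 16.9 with miR-33b* and 25.7 with miR-1825, and 11.3 RPKM with cel-miR-67. The level of Jund with miR-302d-3p lay within the range of the other seeds, unlike that with miR-373-3p. Ier5, an immediate early regulator, stood at 24.1 RPKM with miR-373-3p and 33.04 with miR-302d-3p, against 36.9 with miR-199a-3p, 50.1 with miR-590-3p, 45.8 with miR-33b* and 54.5 with miR-1825, and 41.97 RPKM with cel-miR-67. All 3 were lowest with miR-373-3p among the 7 libraries. Fos, the partner of the Jun proteins in AP-1, was at 4.27 RPKM with miR-373-3p and 8.52 RPKM with cel-miR-67 (-0.85), with 4.46 to 7.77 RPKM in the 4 libraries of other seeds.

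The growth arrest genes had every one of the 11 measured members under 0, against 6060 of all 12330 genes. The list's median against the shared cel-miR-67 library was -0.54 with miR-373-3p, -0.39 with miR-302d-3p and between -0.10 and 0.11 with the other seeds. Gadd45g, a stress sensor that acts on p38 kinase signalling, was at 26.96 RPKM with miR-373-3p and 79.1 RPKM with cel-miR-67 (-1.52), with 31.5 to 70.4 RPKM in the 4 libraries of other seeds. Btg1, an antiproliferative regulator of messenger decay that is also on the list of reported targets of this seed, stood at 25.6 RPKM with miR-373-3p and 24.4 with miR-302d-3p, against 47.2 with miR-199a-3p, 45.2 with miR-590-3p, 61.2 with miR-33b* and 52.7 with miR-1825, and 48.7 RPKM with cel-miR-67. Btg1 was about equally low with both miRNAs of the shared seed. Gas6, a ligand of the TAM receptors, stood at 21.8 RPKM with miR-373-3p and 20.1 with miR-302d-3p, against 48.2 with miR-199a-3p, 44.6 with miR-590-3p, 37.8 with miR-33b* and 42.1 with miR-1825, and 32.1 RPKM with cel-miR-67. Gas1, a membrane protein of growth arrest, stood at 1.42 RPKM with miR-373-3p and 2.38 with miR-302d-3p, against 2.89 with miR-199a-3p, 2.81 with miR-590-3p, 3.17 with miR-33b* and 4.96 with miR-1825, and 2.56 RPKM with cel-miR-67. Gas1 rests on 50 reads with miR-373-3p and 67 with cel-miR-67, and Gas1 and Gas6 were no longer outside the range once cel-miR-67 was included in it. The p53 induced genes as a list were near their level with cel-miR-67, with a median of 0.04. Of 21 measured, none was at least 1.5-fold higher and 2 were lower (9.52%), against 4.83% and 6.56% of all genes. Plk2, a p53 induced kinase, was 1 of them at 115 RPKM with miR-373-3p and 178 RPKM with cel-miR-67 (-0.62) but stood above the mean of the 4 miRNAs of other seeds (0.07).

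The interferon and RNA sensing genes were the stress list with the lowest median, -0.72. Of 21 measured members 14 (66.7%) were at least 1.5-fold lower, against 6.56% of all genes. Among the 14, 5 were at least 2-fold lower. None of the 21 was at least 1.5-fold higher, against 4.83% of all genes, and 20 were under 0, against 6060 of all 12330 genes. The list's median against the same cel-miR-67 library was -0.20 with miR-302d-3p and between -0.20 and -0.56 with the 4 miRNAs of other seeds. All these medians share the cel-miR-67 library. Over the 32 matched members the summed level was 250.5 RPKM with miR-373-3p and 340.8 RPKM with miR-302d-3p. It was 260.0 to 348.5 RPKM with the other seeds and 467.2 RPKM with cel-miR-67. Irf7 was the 1 member outside the range of the other seeds.

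**Figure D4:**
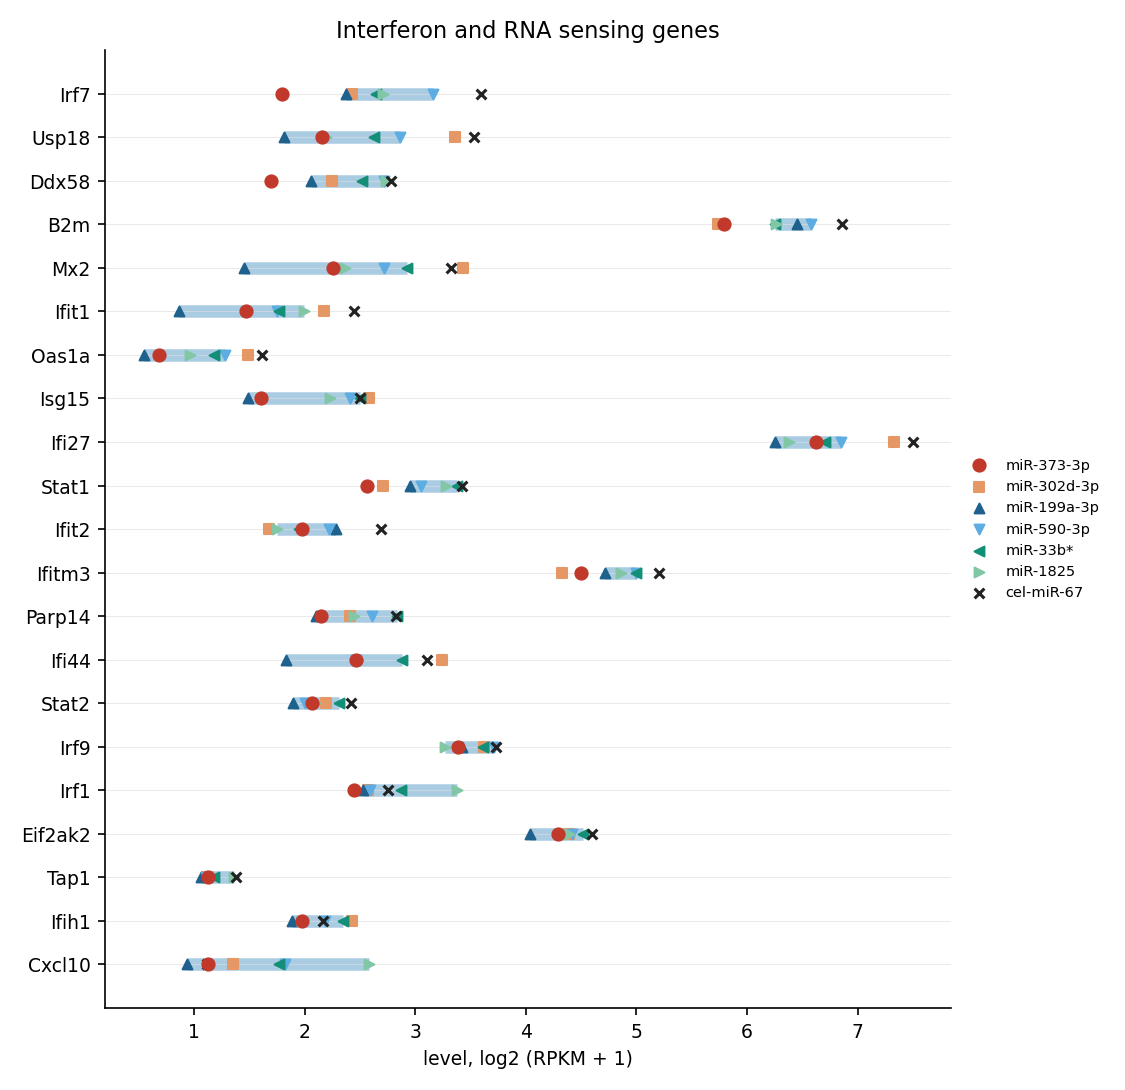
Level of the 21 measured interferon and RNA sensing genes in each of the 7 libraries, as log2 (RPKM + 1), ordered by their change with miR-373-3p over cel-miR-67. Blue bars span the 4 miRNAs of other seeds; Irf7 at the top lies left of its bar, and for many genes the black cross of cel-miR-67 is the rightmost point.

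Irf7, the transcription factor that amplifies type I interferon, stood at 2.46 RPKM with miR-373-3p and 4.395 with miR-302d-3p, against 4.196 with miR-199a-3p, 7.95 with miR-590-3p, 5.24 with miR-33b* and 5.52 with miR-1825, and 11.1 RPKM with cel-miR-67. This was 149 reads with miR-373-3p and 495 with cel-miR-67, a change of -1.80, and the log2 ratio of read rates had an interval of -2.44 to -1.901. No other library held as little Irf7. Ddx58, the RNA sensor RIG-I, stood at 2.24 RPKM with miR-373-3p and 3.74 with miR-302d-3p, against 3.17 with miR-199a-3p, 5.59 with miR-590-3p, 4.74 with miR-33b* and 5.64 with miR-1825, and 5.88 RPKM with cel-miR-67. B2m, the light chain of class I histocompatibility molecules, stood at 54.3 RPKM with miR-373-3p and 52.2 with miR-302d-3p, against 86.6 with miR-199a-3p, 94.3 with miR-590-3p, 75.4 with miR-33b* and 75.9 with miR-1825, and 115 RPKM with cel-miR-67. Ddx58 too was lowest with miR-373-3p of all 7 libraries, and B2m was low with both miRNAs of the shared seed. Usp18, a protease that removes ISG15, stood at 3.47 RPKM with miR-373-3p and 9.25 with miR-302d-3p, against 2.51 with miR-199a-3p, 6.27 with miR-590-3p, 5.19 with miR-33b* and 3.56 with miR-1825, and 10.6 RPKM with cel-miR-67. Mx2, an interferon induced GTPase, stood at 3.79 RPKM with miR-373-3p and 9.81 with miR-302d-3p, against 1.74 with miR-199a-3p, 5.59 with miR-590-3p, 6.61 with miR-33b* and 4.16 with miR-1825, and 8.98 RPKM with cel-miR-67. For Usp18 and Mx2 the level with miR-302d-3p was near that of cel-miR-67, and miR-199a-3p gave the lowest level. The log2 difference of miR-373-3p from miR-302d-3p was -1.20 for Usp18, -1.17 for Mx2 and -0.64 for Irf7.

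The promoters of Irf7 and B2m are shown because 14 members of this list were at least 1.5-fold lower. Both run from 250 bases before to 50 bases after the start, from RefSeq on GRCr8, with matches to the interferon-stimulated response element core GAAANNGAAA, on either strand, in capitals. Irf7 is at chr1:205799974-205800273 on the minus strand and B2m at chr3:129549080-129549379 on the plus strand.
Irf7: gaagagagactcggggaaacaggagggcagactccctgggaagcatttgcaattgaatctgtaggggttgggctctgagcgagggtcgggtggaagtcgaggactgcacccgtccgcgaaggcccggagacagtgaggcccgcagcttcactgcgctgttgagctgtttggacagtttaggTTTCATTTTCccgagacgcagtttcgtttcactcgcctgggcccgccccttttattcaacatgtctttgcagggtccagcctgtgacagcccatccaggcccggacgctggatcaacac
B2m: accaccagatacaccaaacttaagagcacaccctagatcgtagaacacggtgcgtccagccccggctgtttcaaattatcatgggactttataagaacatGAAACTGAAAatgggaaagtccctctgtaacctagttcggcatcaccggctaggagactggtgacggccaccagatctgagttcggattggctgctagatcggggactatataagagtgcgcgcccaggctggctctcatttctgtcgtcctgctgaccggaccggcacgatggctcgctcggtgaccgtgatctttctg
The match in Irf7 is in the reverse form, TTTCNNTTTC. Among the RefSeq promoters are 14 of the measured interferon list members, and 11 hold the core (78.6%), against 1034 of 27457 promoters in all (3.77%) and 10 of 186 measured members of the other stress lists (5.38%). It was in 7 of 7 of the members at least 1.5-fold lower and 4 of 7 of the others. The members were chosen as interferon and RNA sensing genes, so their high share with an interferon response core may follow from that choice alone. The share therefore cannot tell whether the core has a part in the lower levels, which was not tested. A match is a description of these letters and not a site that was seen to act.

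Inflammatory genes went both ways. Of 20 measured NF-kB and inflammation genes, 3 passed the 1.5-fold limit upward (15%) and 4 downward (20%), against 4.83% and 6.56% of all genes. The list's median was -0.23, but 0.06 when the mean of the 4 miRNAs of other seeds was the reference. Socs3, the feedback inhibitor of cytokine signalling, stood at 3.44 RPKM with miR-373-3p and 3.27 with miR-302d-3p, against 5.95 with miR-199a-3p, 5.84 with miR-590-3p, 8.002 with miR-33b* and 6.66 with miR-1825, and 7.05 RPKM with cel-miR-67. Ptgs2, the inducible cyclooxygenase, was at 1.23 RPKM with miR-373-3p and 3.11 RPKM with cel-miR-67 (-0.88), with 2.01 to 3.29 RPKM in the 4 libraries of other seeds. The higher genes were the receptor of interleukin 33, Il1rl1, at 32.6 RPKM with miR-373-3p and 14.5 RPKM with cel-miR-67, and the chemokines Ccl20 at 12.3 RPKM with miR-373-3p and 5.32 RPKM with cel-miR-67 and Ccl7 at 6.33 RPKM with miR-373-3p and 2.59 RPKM with cel-miR-67.

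The hypoxia genes were led by the glucose transporter GLUT1. Slc2a1 stood at 69.8 RPKM with miR-373-3p and 109 with miR-302d-3p, against 23.7 with miR-199a-3p, 27.2 with miR-590-3p, 38.01 with miR-33b* and 22.3 with miR-1825, and 21.6 RPKM with cel-miR-67. Its change was 1.64, the log2 ratio of read rates had an interval of 1.604 to 1.77, and it was higher still with miR-302d-3p. Of 22 measured hypoxia genes, 3 passed the 1.5-fold limit upward (13.6%) and 2 downward (9.09%), against 4.83% and 6.56% of all genes. The median was 0.05. Hk2, the hexokinase of the first step of glycolysis, was at 10.6 RPKM with miR-373-3p and 5.56 RPKM with cel-miR-67 and Bnip3, a mitophagy receptor, at 51.8 RPKM with miR-373-3p and 32.8 RPKM with cel-miR-67. Bnip3 reversed to -0.44 against the mean of the 4 miRNAs of other seeds. Epas1, hypoxia inducible factor 2 alpha, was at 1.43 RPKM with miR-373-3p and 2.67 RPKM with cel-miR-67 (-0.60) and reversed likewise, to 0.11.

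Antioxidant, autophagy and apoptosis genes were, as lists, close to their level with cel-miR-67, with medians of 0.08, -0.10 and 0.08. Of 32 antioxidant genes 1 was at least 1.5-fold higher (3.12%) and 4 lower (12.5%), against 4.83% and 6.56% of all genes. The superoxide dismutases Sod3 and Sod2 were among the lower ones. Sod3 was at 0.925 RPKM with miR-373-3p and 3.01 RPKM with cel-miR-67. Sod2 was at 16.5 RPKM with miR-373-3p and 28.3 RPKM with cel-miR-67. Of 20 autophagy and degradation genes 1 was lower, Trim63, a muscle ubiquitin ligase, at 22.4 RPKM with miR-373-3p and 35.7 RPKM with cel-miR-67. Of 21 apoptosis genes 1 was lower and 1 higher. The lower one was Diablo, the mitochondrial antagonist of inhibitor of apoptosis proteins. Diablo stood at 8.92 RPKM with miR-373-3p and 7.82 with miR-302d-3p, against 19.4 with miR-199a-3p, 18.7 with miR-590-3p, 18.5 with miR-33b* and 19.2 with miR-1825, and 19.3 RPKM with cel-miR-67. The 4 miRNAs of other seeds and cel-miR-67 lay within a narrow band, and both miRNAs of the shared seed were at less than 0.5 of it. The higher one was Bcl2l11, the BH3-only protein BIM, at 3.46 RPKM with miR-373-3p and 1.83 RPKM with cel-miR-67, with 0.868 to 4.44 RPKM in the 4 libraries of other seeds.

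Of 30 measured rat genes whose human messengers are reported as targets of this seed, 9 were at least 1.5-fold lower, 1 was higher and 20 passed neither limit. The median was -0.35, and 5 were below the range of the 4 miRNAs of other seeds by at least 1.5-fold. Over all 12330 genes 6.56% were at least 1.5-fold lower, 4.83% higher and 1.55% below that range. Tgfbr2, the type II TGF-beta receptor, stood at 5.47 RPKM with miR-373-3p and 4.36 with miR-302d-3p, against 19.95 with miR-199a-3p, 12.6 with miR-590-3p, 17.4 with miR-33b* and 17.1 with miR-1825, and 16.8 RPKM with cel-miR-67. Lats2, the kinase that restrains YAP, stood at 6.49 RPKM with miR-373-3p and 6.58 with miR-302d-3p, against 19.4 with miR-199a-3p, 15.6 with miR-590-3p, 14.2 with miR-33b* and 13.3 with miR-1825, and 17.2 RPKM with cel-miR-67. Ccnd1, cyclin D1, stood at 6.65 RPKM with miR-373-3p and 5.14 with miR-302d-3p, against 17.8 with miR-199a-3p, 18.6 with miR-590-3p, 12.5 with miR-33b* and 29.1 with miR-1825, and 18.6 RPKM with cel-miR-67. In these 3, both libraries with the shared seed lay below all 5 others. Dazap2, a small proline-rich protein, was at 26.7 RPKM with miR-373-3p and 53.4 RPKM with cel-miR-67, with 41.02 to 65.6 RPKM in the 4 libraries of other seeds. The 1 higher gene was Mtor, the growth kinase, at 11.98 RPKM with miR-373-3p and 6.74 RPKM with cel-miR-67 (0.75). Whether sites for the seed stand in these rat messengers was not tested.

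**Figure D5:**
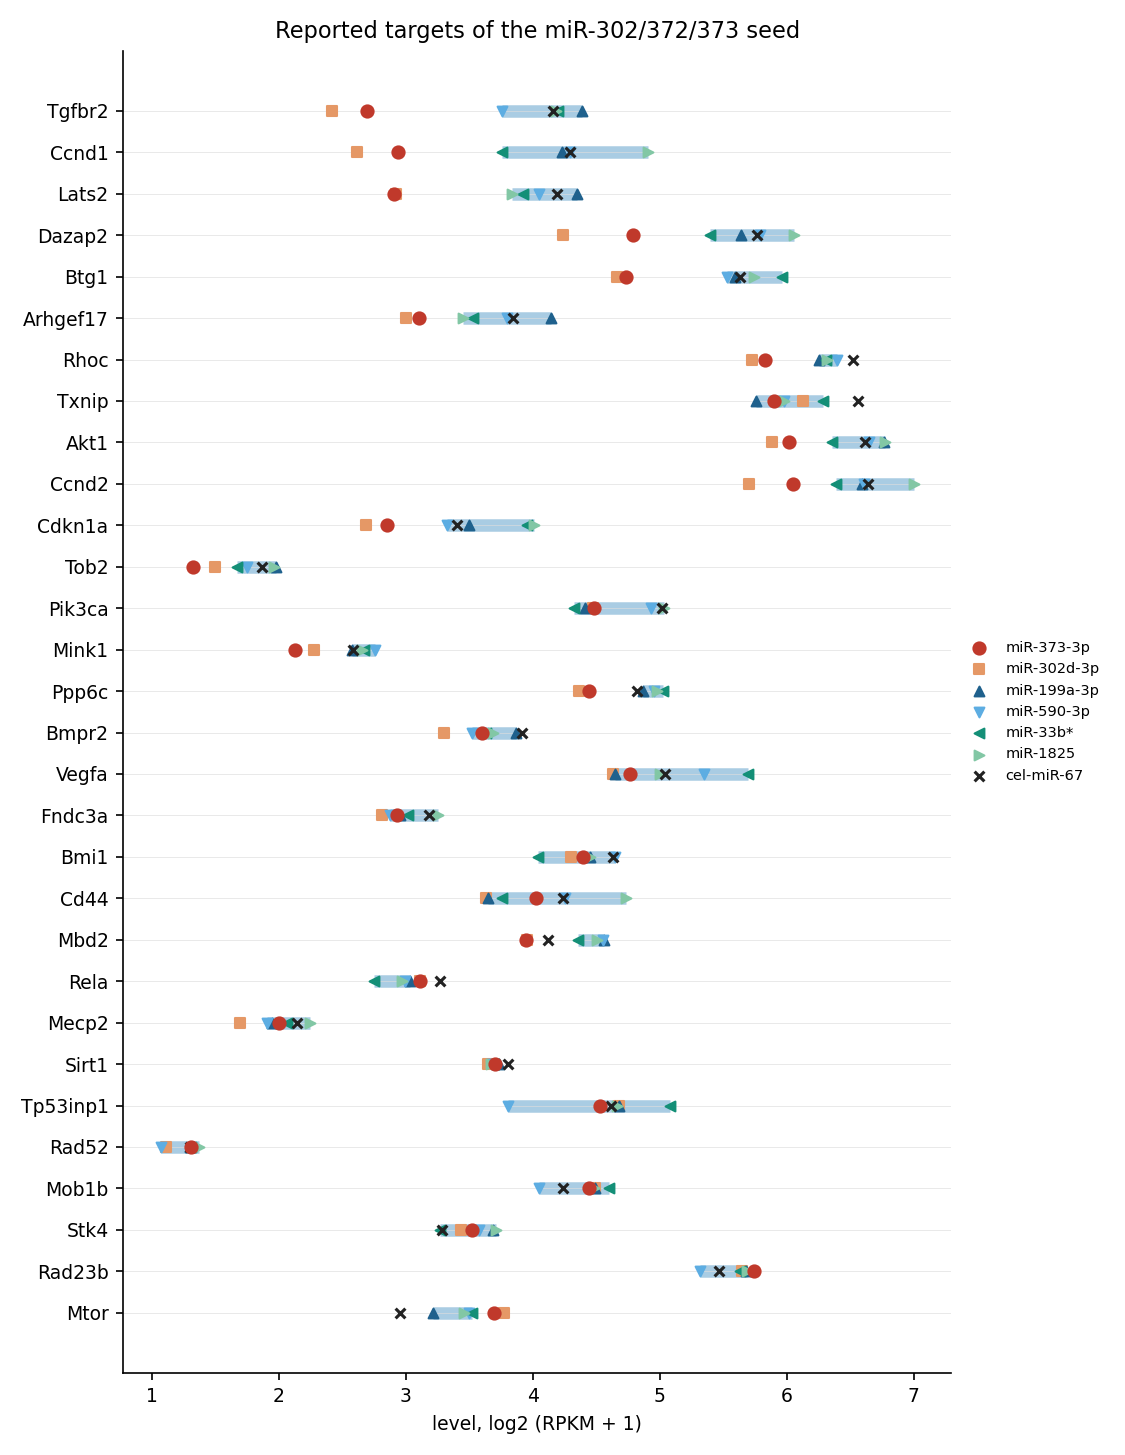
Level of the 30 measured reported targets in each of the 7 libraries, as log2 (RPKM + 1), ordered by their change with miR-373-3p over cel-miR-67. Blue bars span the 4 miRNAs of other seeds; red circles and orange squares, the miRNAs with the shared seed, lie left of the bar for Tgfbr2, Ccnd1, Lats2, Dazap2 and Btg1.

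The pathway lists that hold Tgfbr2 and Lats2 were counted as well, with these genes among their members. Over all genes 6.56% were at least 1.5-fold lower and 4.83% higher. Of 33 TGF-beta and BMP pathway genes 7 were at least 1.5-fold lower and 2 higher, with 30 of 33 under 0, against 6060 of all 12330 genes. The list's median was -0.21 with miR-373-3p, -0.25 with miR-302d-3p and between -0.21 and -0.12 with the 4 miRNAs of other seeds, all against the same cel-miR-67 library. Tgfb2, a TGF-beta ligand, was at 29.3 RPKM with miR-373-3p and 61.8 RPKM with cel-miR-67 (-1.05) and Id2, a BMP induced inhibitor of transcription factors, at 19.1 RPKM with miR-373-3p and 8.37 RPKM with cel-miR-67 (1.10). Of 17 YAP induced genes 7 were lower and 1 higher, among them the matricellular Ctgf at 48.1 RPKM with miR-373-3p and 103 RPKM with cel-miR-67 (-1.09). Their median was -0.28 with miR-373-3p, -0.39 with miR-302d-3p and between -0.42 and -0.11 with the other seeds. Of 27 Hippo pathway genes 2 were lower, Lats2 and the related kinase Stk38l at 19.6 RPKM with miR-373-3p and 45.3 RPKM with cel-miR-67. The cel-miR-67 level of Tgfb2, Ctgf and Stk38l was above that of every other library.

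Of 30 measured genes of G2 and M phase 27 (90%) were at least 1.5-fold higher with miR-373-3p, against 4.83% of all genes. Their median was 0.80. Against the mean of the 4 miRNAs of other seeds the median was -0.36. Their summed level was 653.4 RPKM with miR-373-3p, 573.2 RPKM with miR-302d-3p, 618.9 to 1252 RPKM with the other seeds and 324.3 RPKM with cel-miR-67. Ccnb1, which starts mitosis with Cdk1, stood at 56.3 RPKM with miR-373-3p and 50.2 with miR-302d-3p, against 44.6 with miR-199a-3p, 66.4 with miR-590-3p, 48.4 with miR-33b* and 107 with miR-1825, and 10.4 RPKM with cel-miR-67. Cdkn1c, the cyclin kinase inhibitor p57, was at 7.26 RPKM with miR-373-3p and 1.501 RPKM with cel-miR-67 (1.72), with 1.22 to 3.88 RPKM in the 4 libraries of other seeds. The median of 28 S phase genes was 0.22, and -0.01 against the mean of the other seeds.

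The defining markers of the labelled cell type were abundant. The 11 measured ventricular cardiomyocyte markers summed to 19848 RPKM with miR-373-3p, 16638 to 20811 RPKM with the other seeds and 21635 RPKM with cel-miR-67. Of the 11, Ryr2 and Myh6 (18.2%) were at least 1.5-fold lower, against 6.56% of all genes. Ryr2, the calcium release channel, was at 41.3 RPKM with miR-373-3p and 88.03 RPKM with cel-miR-67 and Myl2, the ventricular myosin light chain, at 7116 RPKM with miR-373-3p and 6838 RPKM with cel-miR-67. Markers of other cells were present too. The 13 fibroblast markers summed to 1181 RPKM with miR-373-3p, 1310 to 1688 RPKM with the other seeds and 1710 RPKM with cel-miR-67. Of the 13, 4 (30.8%) were at least 1.5-fold lower, against 6.56% of all genes, and none was at 0. S100a4, a calcium binding protein of fibroblasts and leukocytes, stood at 163 RPKM with miR-373-3p and 109.8 with miR-302d-3p, against 604 with miR-199a-3p, 423 with miR-590-3p, 339.7 with miR-33b* and 371 with miR-1825, and 572 RPKM with cel-miR-67. This 1 gene made up most of the difference in summed fibroblast markers between miR-373-3p and cel-miR-67. The median change of the fibroblast list was -0.31 with miR-373-3p, within the -0.44 to 0.07 of the other seeds, all against the same cel-miR-67 library.

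Of 27 matrix genes, which fibroblasts make in large part, 9 were at least 1.5-fold lower and 1 higher, and the median was -0.38. Over all genes the shares were 6.56% lower and 4.83% higher. The part of the fibroblast markers in the lower matrix and TGF-beta genes was not tested. The 13 smooth muscle markers summed to 1292 RPKM with miR-373-3p, 1607 to 1948 RPKM with the other seeds and 1441 RPKM with cel-miR-67. Of these, 12 reached a mean of 1 RPKM. The 13 markers of macrophages and leukocytes summed to 31.5 RPKM with miR-373-3p and 30.7 RPKM with cel-miR-67. The libraries of other seeds gave 24.6 to 27.8 RPKM, and 10 of the 13 markers reached a mean of 1 RPKM. The 11 matched endothelial markers summed to 20.6 RPKM with miR-373-3p, 16.6 to 19.6 RPKM with the other seeds and 27.6 RPKM with cel-miR-67. Only 5 of them reached a mean of 1 RPKM.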

How the data were processed

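Messenger RNA of 7 cultures, 1 per miRNA, was sequenced with TruSeq mRNA libraries, per the labels' protocols. The authors deposited RPKM for 17141 genes, and for every library the ratio over cel-miR-67. The submitters' processing notes name STAR 2.7, edgeR and Rnor_6.0 without saying what each did. Annotation, read counter and strand setting: not given in the sources used here, so overlapping antisense genes and near-identical copies such as LOC100912195 are uncertain. The RPKM of the single-sample tables equalled the series table, and 16751 deposited ratios equalled the quotient of RPKM within 1e-06; the ratios were not used further, since 234 genes are at 0 with cel-miR-67.

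Whole reads were recovered from the RPKM for 100% of genes, within 0.002 reads (0.05 for genes with many), by a step tested on simulated data, and gave exact (Clopper-Pearson) 95% intervals. No count test was run, since there is 1 library per group. The filter was a mean of 1 RPKM and the pseudocount 1 RPKM. Counts used limits of 2-fold and 1.5-fold. Named genes were the 12 highest and 12 lowest protein-coding genes with a symbol and a mean of at least 5 RPKM, the stress genes outside the range of the 4 miRNAs of other seeds, up to 4 of the largest changes of at least 1.5-fold in each list, and any reported target or cell type marker. A gene that the rule names is not reported here. Mx2, Ankrd1 and Rcan1 fall outside this rule, and with the comparison of Usp18, Mx2 and Irf7 between the miRNAs of the shared seed were chosen after their values were seen. Members and lists were chosen with earlier results of these data known, and 36 lists of 727 symbols were used, of which 697 were matched and 633 measured. Promoters and mature miRNAs came from RefSeq GRCr8 tables, matched by symbol or name. Python 3.11.15, numpy 2.4.6, pandas 2.3.3, scipy 1.17.1 and matplotlib 3.10.9 were used. Alternatives tried were the pseudocount, the filter, the scaling, the reference, the limits and the libraries that make the range.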

Additional observations from a re-analysis of the deposited data

How the results depend on the processing

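No paired analysis was possible because each group has 1 library. The comparison of seed matches in messengers was not run here, for want of the sequences it needs. With a pseudocount of 0.1 RPKM 289 genes were 2-fold higher and 394 lower; 4 stress genes were above the range of the other seeds, and 121 of all genes above and 295 below. With 5 RPKM these were 32 and 69; 1 stress gene above and 6 below; 34 of all genes above and 76 below; 7 stress genes at least 1.5-fold higher, 26 lower, and 58 list members lower. With a mean of at least 5 RPKM 83 genes were higher, 146 lower and 38 above the range. Either scaling left 1 stress gene above. Against the mean of the 4 other seeds 60 genes were higher and 152 lower, with 28 stress genes lower and 27 list members higher and 61 lower. At a 1.5-fold limit 595 were higher and 809 lower. At a 2-fold margin 0 stress genes were above and 2 below, with 17 of all genes above and 47 below. Leaving 1 of the 4 libraries out of the range, chosen after seeing the data, gave 3 to 7 stress genes above, 11 to 17 below, 94 to 142 of all genes above and 213 to 289 below; without miR-33b* it was 7 above and without miR-199a-3p 17 below. Against the mean of the 4 other seeds the medians of the NF-kB (0.059), G2 and M phase (-0.36), S phase (-0.0098) and endothelial (0.063) lists reversed, as did Cenpf (-0.30), Sln (0.16), Cdkn3 (-0.58), Plk2 (0.071), Bnip3 (-0.44), Herpud1 (0.15), Mrps12 (-0.11), Epas1 (0.11), Ect2 (-0.38), Tk1 (-0.34), Birc5 (-0.18), Aldh1a2 (0.40) and Ccnb1 (-0.24). The cause was not tested.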

Other observations

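Outside the lists, the lowest rows of all had clone names and no gene name. Lower than the rows described next were AABR07015079.1 and AABR07015080.1, both annotated as miRNA, with changes of -4.68 and -4.67. AABR07015081.2, annotated as protein-coding, stood at 9.84 RPKM with miR-373-3p and 18.1 with miR-302d-3p, against 89.2 with miR-199a-3p, 39.4 with miR-590-3p, 79.1 with miR-33b* and 296 with miR-1825, and 251 RPKM with cel-miR-67. AABR07015057.1 stood at 4.98 RPKM with miR-373-3p and 6.72 with miR-302d-3p, against 28.9 with miR-199a-3p, 11.6 with miR-590-3p, 24.2 with miR-33b* and 86.2 with miR-1825, and 94.8 RPKM with cel-miR-67. Both were far lower with each miRNA of the shared seed than with miR-1825 or cel-miR-67, and the 4 libraries of other seeds themselves spread widely. AABR07015042.1, a row of a neighbouring clone number annotated as a miRNA, stood at 88.5 RPKM with miR-373-3p and 115 with miR-302d-3p, against 409 with miR-199a-3p, 125 with miR-590-3p, 272 with miR-33b* and 1015 with miR-1825, and 1535 RPKM with cel-miR-67, with 133 reads with miR-373-3p and 1705 with cel-miR-67. Whether these rows share reads is not given in the sources used here, and they were chosen after their values were seen.

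The libraries, made from messenger RNA, also hold rows annotated as small RNA genes. Of 178 measured rows annotated as miRNA 10 were at least 2-fold higher (5.62%) and 23 lower (12.9%) with miR-373-3p. Of 293 snoRNA rows 19 were higher (6.48%) and 12 lower (4.1%), against 1.15% and 1.87% of all genes. Some of these rows rest on few reads. AABR07015056.1 had 3 reads with miR-373-3p and 15 with cel-miR-67, and SNORD83 had 7 and 0. AABR07015056.1 and AABR07063462.1 had the same values, 1.72 RPKM with miR-373-3p and 11.6 RPKM with cel-miR-67. Whether rows repeat each other was not tested, and these shares are a description only. Mir675, whose hairpin lies within the H19 transcript, stood at 128 RPKM with miR-373-3p and 168 with miR-302d-3p, against 30.8 with miR-199a-3p, 29.2 with miR-590-3p, 194 with miR-33b* and 33.8 with miR-1825, and 31.5 RPKM with cel-miR-67. It was high with both miRNAs of the shared seed and with miR-33b*. Msrb3, a methionine sulfoxide reductase on none of the lists, was far below the range of the other seeds. Msrb3 stood at 22.7 RPKM with miR-373-3p and 21.6 with miR-302d-3p, against 87.5 with miR-199a-3p, 70.2 with miR-590-3p, 68.7 with miR-33b* and 70.6 with miR-1825, and 65.3 RPKM with cel-miR-67. Mir675 and Msrb3 too were chosen after their values were seen.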
